A study of Mus musculus with 6 samples.

Results

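The genes described here modify the circadian clock without being part of its central loop. They were the nuclear receptor genes Rora and Rorb, the casein kinase genes Csnk1d and Csnk1e, the repressor genes Bhlhe41 and Ciart, and the ubiquitin protease gene Usp2. They were picked by symbol, and all 7 were found among the 9720 protein-coding genes of the table and passed the filter on low values. Poly(A) RNA of mouse cones was sequenced to ask which cone transcripts depend on Bmal1, the gene (Arntl in the table) that encodes the clock activator BMAL1. The knockout group was HRGPcre;Bmal1f/f;Z/EG, with both copies of Bmal1 floxed. The control group was HRGPcre;Bmal1f/+;Z/EG, with 1 floxed copy, so control cones can keep 1 intact copy. Both groups carried the Cre transgene HRGPcre, whose human red/green pigment promoter is active in cones, and the Z/EG reporter, which makes eGFP after Cre has acted. Cones were collected from dissociated neural retinas by sorting eGFP+ cells, with 3 libraries per group. The strain was C57BL/6 with mixed background, the lights were on for 12 h and off for 12 h. The animals' age appears as day 60 to 80 in one place and 2 to 6 months in another. No hour of collection is named, so a difference in it between the groups cannot be told apart from the genotype. The labels also do not tie libraries to separate animals, and p-values here speak only for the spread among these samples, part of which may be technical.

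In the mammalian clock, CLOCK and BMAL1 bind E-box sequences and switch on genes whose products later repress them. ROR proteins activate, and REV-ERB proteins repress, genes that carry ROR elements, Arntl among them, and in mouse photoreceptors ROR alpha and ROR beta also act on opsin genes. Casein kinases 1 delta and epsilon phosphorylate PERIOD proteins and mark them for degradation. DEC2, the product of Bhlhe41, and CHRONO, the product of Ciart, repress CLOCK and BMAL1, and USP2 removes ubiquitin from clock proteins. Bhlhe41, Ciart and Usp2 are themselves known as E-box driven genes.

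The values were FPKM, fragments counted relative to transcript length and library size, which allow levels of different genes to be set side by side. Sums over the table ran from 102059 to 106900 FPKM in knockout libraries and from 84995 to 128773 FPKM in control libraries. These sums are not read depths, which are unknown. Control 1 stood apart, with a mean correlation across genes of 0.90 to the other libraries, against 0.93 to 0.95 for each of the others. It also held 21.1 FPKM of the ganglion cell marker Stmn2 and 6.65 FPKM of the amacrine marker Pax6, against at most 0.668 and 2.22 FPKM in the other 5 libraries. The ganglion cell marker Rbpms was also highest there, at 1.94 FPKM. The markers did not all move together. The amacrine marker Slc6a9 and the ganglion cell markers Nefl and Nefh were at their lowest of the control libraries in control 1, at 4.58, 0.890 and 0.811 FPKM. All 10 cone markers were in the table, and their summed level was 5523 to 6811 FPKM in knockout libraries and 4196 to 7153 FPKM in control libraries. The 15 rod markers summed to 2654 to 3740 FPKM in knockout libraries and 3095 to 3806 FPKM in control libraries, and none of them passed. No horizontal cell marker was listed.

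No clock modifier passed an adjusted p of 0.05 in limma, in either direction. The test was run on log2(FPKM + 1) over 8627 genes, of which 9 passed (0.104%), 4 higher (0.0464%) and 5 lower (0.058%) in knockout cones, or 6 higher and 5 lower after each library was scaled to a sum of 1000000 FPKM. In this fit the 7 genes had an unadjusted p of 0.11 or more, whereas 5.49% of all tested genes had an unadjusted p under 0.05. In some alternatives 1 of the 7 had an unadjusted limma p under 0.05. These were scaling to a common sum, median-ratio scaling, array weights, a rod marker covariate, and leaving out control 1 or control 3. In them 561 to 963 of the 8627 tested genes had such a p. None of the 7 passed under any of the 17 alternatives in which it was tested. Their log2 differences, knockout minus control, were positive for 4 genes and negative for 3, with a median of 0.13 against -0.02 over all tested genes. The 95% intervals of all 7 lay between -0.89 and 0.86, and each held 0. A change within these bounds could not be told from the spread between libraries with 3 samples per group. In sorted cell RNA, fewer cells of a type and less RNA per cell cannot be told apart.

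**Figure D1:**
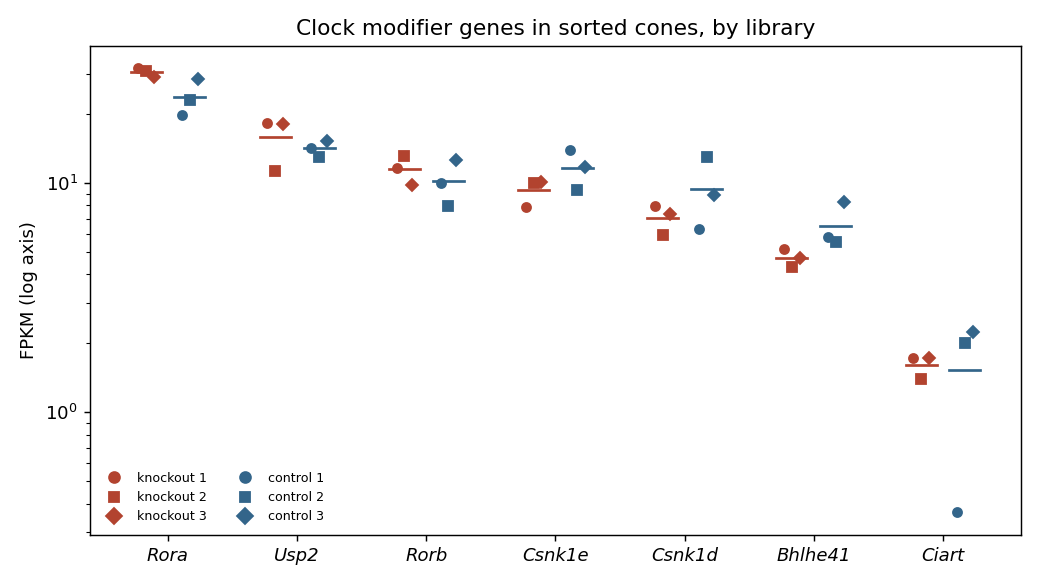
FPKM of the 7 clock modifier genes on a log axis, with each library as a point (knockout left, control right) and the group mean as a bar. Rora is highest and Ciart lowest in both groups, and control 1 holds the lowest Ciart value at 0.366 FPKM.

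In both groups Rora had the highest level of the 7, followed by Usp2, and Ciart had the lowest. Rora ranked 526 of the table's genes by mean level in knockout cones and 736 in control cones, whereas Ciart ranked 7350 and 7719. Rorb, Csnk1e and Csnk1d held the middle places with means of 7.07 to 11.7 FPKM, and successive genes among these 3 overlapped in range in both groups. Usp2 overlapped in range with the gene below it in both groups, Rorb in knockout cones and Csnk1e in control cones. Csnk1d lay above Bhlhe41 without overlap in knockout cones, while in control cones their ranges overlapped. In FPKM without scaling, the spread was wider among control libraries for 6 of the 7 genes, Usp2 being the exception. The sums over the table also ranged more widely among control libraries, from 84995 to 128773 FPKM, and their part in this spread was not tested.

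Rora encodes the nuclear receptor ROR alpha and spans 68653786 to 69388246 of chromosome 9, plus strand (GRCm38, as for all gene positions here). It measured 31.8, 31.0 and 29.2 FPKM in knockouts 1 to 3, against 19.8, 23.0 and 28.5 FPKM in controls 1 to 3. Every knockout library lay above every control library, by 0.700 FPKM at the closest pair. The means were 30.6 ± 1.31 FPKM in knockout cones and 23.8 ± 4.40 FPKM in control cones (SD, n = 3 each), a ratio of 1.29. The log2 difference was 0.37 ± 0.23 (SE), the 95% interval ran from -0.13 to 0.86, and the adjusted p in limma was 0.93. Groups that did not overlap were found for 9.39% of all tested genes, 3.52% higher and 5.87% lower in knockout cones. After scaling to a common sum these were 588 genes higher and 468 lower, against 304 and 506 without scaling. Among the 7 clock modifiers there were 2 such genes, Rora above and Bhlhe41 below, also under each of the 3 other scalings. Without control 1 the log2 difference of Rora was 0.25.

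Rorb encodes ROR beta, a receptor needed for rod formation in mouse retina, and spans 18930605 to 19111196 of chromosome 19, minus strand. It measured 11.6, 13.1 and 9.85 FPKM in knockout libraries, against 10.1, 7.91 and 12.6 FPKM in control libraries. The groups overlapped, with the highest value in knockout 2 and the lowest in control 2. The means were 11.5 ± 1.64 FPKM in knockout cones and 10.2 ± 2.34 FPKM in control cones (log2 difference 0.18, 95% interval from -0.33 to 0.69, adjusted p = 0.9997 in limma). Rod marker RNA, summed above, was present in each library, and with a rod marker covariate the log2 difference was 0.14. Without the covariate, leaving out control 2 gave 0.023 and knockout 2 gave 0.087, while leaving out knockout 3 gave 0.28 and control 3 gave 0.33. Within a library Rora exceeded Rorb 2.36- to 2.96-fold in knockout cones and 1.97- to 2.91-fold in control cones. This ratio did not differ beyond its spread (log2 difference 0.19, exact permutation test, two-sided, p = 0.40, 0.47 after Benjamini-Hochberg adjustment over 7 ratios).

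The REV-ERB genes, whose products compete with ROR proteins for the same elements, both fell in knockout cones. Nr1d1, which encodes REV-ERB alpha, measured 2.87, 4.62 and 4.91 FPKM in knockout libraries, against 38.3, 47.1 and 56.3 FPKM in control libraries (adjusted p = 0.00013 in limma). Nr1d2, which encodes REV-ERB beta, measured 0.822, 0.882 and 0.877 FPKM in knockout libraries, against 8.38, 6.73 and 9.40 FPKM in control libraries (adjusted p = 0.00030 in limma). The summed level of Rora and Rorb was 11.8, 8.01 and 6.74 times that of Nr1d1 and Nr1d2 in knockouts 1 to 3, against 0.639, 0.575 and 0.626 times in controls 1 to 3. ROR transcripts outnumbered REV-ERB transcripts per length in each knockout library, and the reverse held in each control library. Since both genes of the denominator fell and neither ROR gene passed, this ratio largely repeats that fall. It is given as a description, with no test reported.

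**Figure D2:**
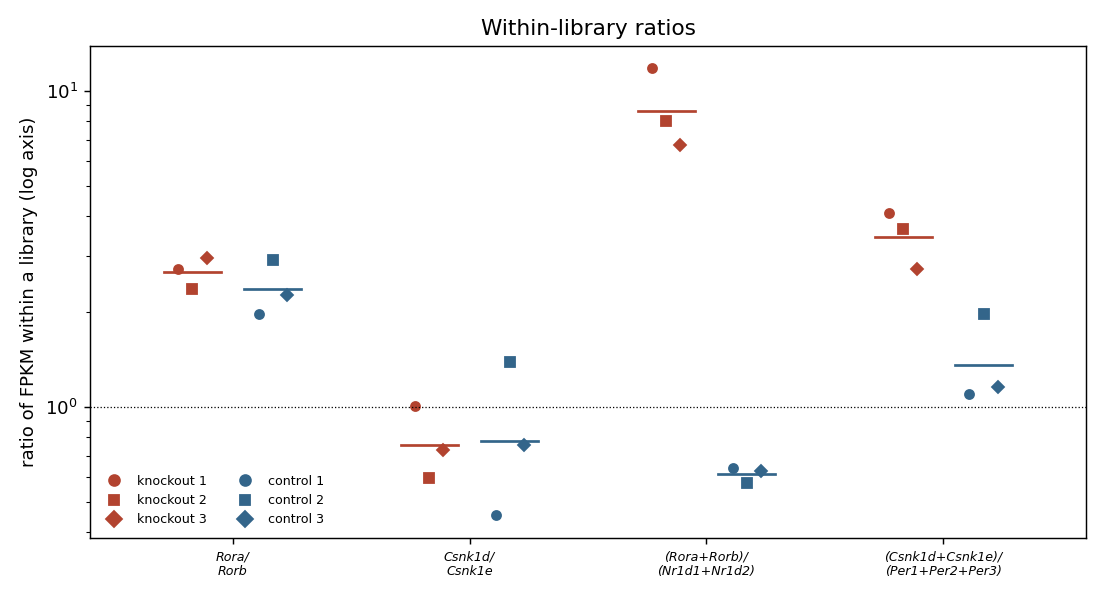
Ratios of FPKM within each library on a log axis, with knockout left, control right and the geometric mean as a bar. Both ratios whose denominators hold genes that fell (Nr1d1 and Nr1d2, or Per3) are apart between the groups, while Rora/Rorb and Csnk1d/Csnk1e overlap.

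Of the 6 clock genes listed for ROR elements, 4 were tested and 1 rose, against 0.0464% of all tested genes. Cry1, a cryptochrome gene, measured 18.7, 14.9 and 20.5 FPKM in knockout libraries, against 4.56, 6.95 and 6.59 FPKM in control libraries (adjusted p = 0.042 in limma). That call was lost in 8 of 17 alternatives, among them leaving out any single library other than control 1, with an adjusted p of up to 0.23 in limma. Nfil3, which encodes a bZIP repressor, measured 5.97, 4.84 and 5.55 FPKM in knockout libraries, against 1.01, 2.47 and 2.82 FPKM in control libraries (adjusted p = 0.27 in limma). Clock averaged 6.14 ± 0.49 FPKM in knockout cones and 5.46 ± 1.22 FPKM in control cones. Arntl averaged 3.05 ± 0.66 FPKM in knockout cones and 2.96 ± 0.34 FPKM in control cones (SD, n = 3 each), and since the value covers the whole gene it does not check the deletion. The median log2 difference of the 4 was 0.63, against -0.02 over all tested genes.

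None of the 10 photoreceptor genes linked to ROR alpha or ROR beta in mouse retina passed. Opn1sw, the short-wavelength opsin gene, measured 1774, 1977 and 2091 FPKM in knockout libraries, against 735, 1005 and 1202 FPKM in control libraries. Its groups did not overlap, with a log2 difference of 1.01 (95% interval from 0.32 to 1.71, adjusted p = 0.65 in limma), or 0.565 after quantile normalization. Opn1mw, the medium-wavelength opsin gene, averaged 745 ± 62.1 FPKM in knockout cones and 1092 ± 408 FPKM in control cones. Nr2e3, a rod-specific nuclear receptor gene, averaged 7.97 ± 2.22 FPKM in knockout cones and 6.01 ± 0.54 FPKM in control cones. Of these 10 genes 6 had a positive log2 difference, and the median was 0.20. Of the 15 coregulators of ROR and REV-ERB proteins none passed, with a median log2 difference of 0.02. The corepressor gene Ncor1 was the most abundant, at 74.6 ± 11.4 FPKM in knockout cones and 62.2 ± 5.92 FPKM in control cones. The acetyltransferase genes Kat2b and Ep300 and the coactivator gene Ncoa2 had the smallest p of that list, with log2 differences of 0.34, 0.33 and 0.24 and adjusted p values from 0.93 upward in limma.

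Csnk1d encodes casein kinase 1 delta and occupies 120961749 to 120991330 of chromosome 11, minus strand. It measured 7.94, 5.95 and 7.32 FPKM in knockout libraries, against 6.34, 13.0 and 8.89 FPKM in control libraries. The control values spread 2.04-fold and took in most of the knockout range. The means were 7.07 ± 1.02 FPKM in knockout cones and 9.39 ± 3.34 FPKM in control cones (log2 difference -0.32, 95% interval from -0.89 to 0.24, adjusted p = 0.96 in limma). Without control 2, which held the highest value, the log2 difference was -0.086, and without control 1 it was -0.55.

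Csnk1e encodes casein kinase 1 epsilon and occupies 79417856 to 79455566 of chromosome 15, minus strand. It measured 7.88, 10.0 and 10.1 FPKM in knockout libraries, against 14.0, 9.33 and 11.7 FPKM in control libraries. Control 1 held the highest Csnk1e value and the lowest Csnk1d value of its group, and control 2 the reverse. The means were 9.32 ± 1.25 FPKM in knockout cones and 11.7 ± 2.34 FPKM in control cones (log2 difference -0.29, 95% interval from -0.78 to 0.21, adjusted p = 0.96 in limma). Without control 1 the log2 difference of Csnk1e was -0.16, and without knockout 1 it was -0.18. The ratio of Csnk1d to Csnk1e was 1.01, 0.594 and 0.727 in knockout libraries, against 0.453, 1.39 and 0.759 in control libraries. Control cones held both the highest and the lowest ratio. The log2 difference was -0.04 (exact permutation test, two-sided, p = 0.90, smallest possible 0.10), and its direction turned without knockout 2 or control 2.

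The PERIOD genes encode the substrates of both kinases. Csnk1d and Csnk1e together measured 4.10, 3.64 and 2.73 times the sum of Per1, Per2 and Per3 in knockouts 1 to 3, against 1.10, 1.97 and 1.16 times in controls 1 to 3. The groups did not overlap. Since Per3 of the denominator fell and neither kinase gene passed, this ratio too is a description with no test reported. Of the 3 genes in that sum Per3 alone fell, at 0.559 ± 0.207 FPKM in knockout cones and 10.1 ± 2.59 FPKM in control cones (adjusted p = 0.00023 in limma). Per1 averaged 2.76 ± 1.02 FPKM in knockout cones and 3.85 ± 0.55 FPKM in control cones. Per2 averaged 1.55 ± 0.26 FPKM in knockout cones and 1.92 ± 0.99 FPKM in control cones, and the sign of its difference turned without control 1 and with array weights.

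All 9 casein kinase 1 and 2 genes of the list were tested and none passed. Their log2 differences ran from -0.32 for Csnk1d to 0.11 for Csnk2a1, with a median of 0.04, and no gene of the list had groups that were apart. Csnk1a1, which encodes casein kinase 1 alpha, was the most abundant at 20.2 ± 2.00 FPKM in knockout cones and 19.7 ± 2.47 FPKM in control cones. Csnk2b, the regulatory subunit of casein kinase 2, averaged 18.5 ± 4.26 FPKM in knockout cones and 21.1 ± 7.15 FPKM in control cones. Its catalytic subunit genes were lower. Csnk2a1 averaged 6.48 ± 1.36 FPKM in knockout cones and 5.97 ± 1.63 FPKM in control cones. Csnk2a2 averaged 1.93 ± 0.24 FPKM in knockout cones and 1.95 ± 0.95 FPKM in control cones. Of the gamma isoforms, Csnk1g1 averaged 18.4 ± 1.22 FPKM in knockout cones and 17.8 ± 1.56 FPKM in control cones. Csnk1g2 averaged 3.76 ± 1.51 and Csnk1g3 3.15 ± 0.23 FPKM in knockout cones, against 3.41 ± 1.27 and 3.67 ± 0.40 FPKM in control cones. Csnk1e and Csnk1d came next below Csnk1a1, Csnk2b and Csnk1g1 in mean level over all libraries.

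**Figure D3:**
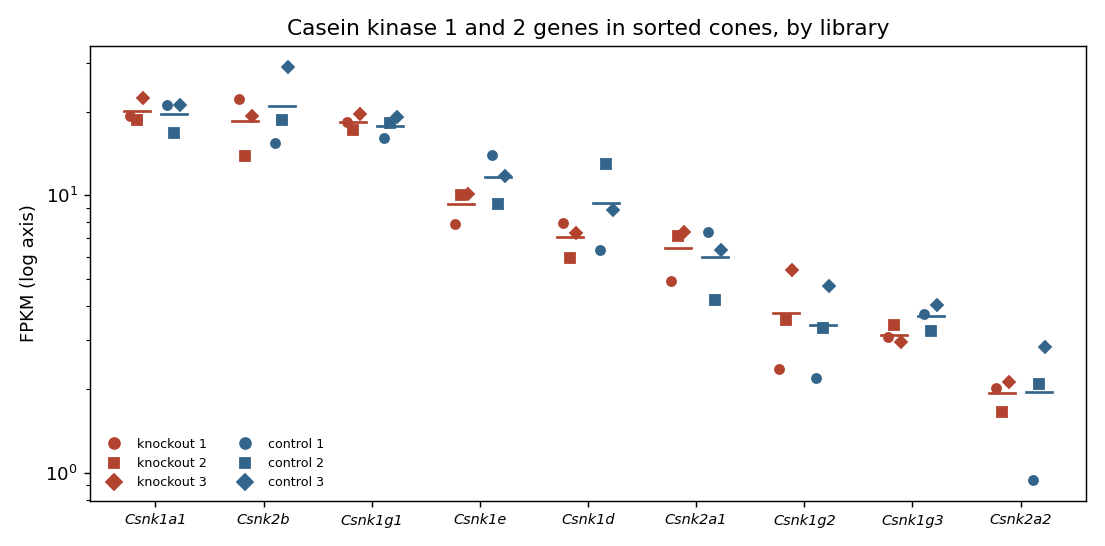
FPKM of the 9 casein kinase 1 and 2 genes on a log axis, with each library as a point (knockout left, control right) and the group mean as a bar. The groups overlap for each gene, and Csnk1a1, Csnk2b and Csnk1g1 lie above Csnk1e and Csnk1d.

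Bhlhe41, Ciart and Usp2 belong with Nr1d1 to the clock genes known to be driven through E-boxes, and their promoter sequences are shown because these modifiers did not pass while Nr1d1 fell. The windows run from 250 bases before to 50 bases after the RefSeq start on GRCm38.p6, 5′ to 3′ on the gene's strand. Capitals mark the E-box CACGTG, which reads the same on both strands, and the E′-box CACGTT or its reverse complement AACGTG. The windows are chr3:95882179-95882478 on the minus strand for Ciart, chr6:145865371-145865670 on the minus strand for Bhlhe41, chr9:44084670-44084969 on the plus strand for Usp2 and chr11:98775328-98775627 on the minus strand for Nr1d1.
Ciart: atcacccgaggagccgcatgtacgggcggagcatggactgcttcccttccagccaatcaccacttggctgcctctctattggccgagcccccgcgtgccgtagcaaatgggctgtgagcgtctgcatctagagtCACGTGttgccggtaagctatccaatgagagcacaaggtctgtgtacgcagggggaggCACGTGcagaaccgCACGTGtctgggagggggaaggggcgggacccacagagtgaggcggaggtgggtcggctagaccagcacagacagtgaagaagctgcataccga
Bhlhe41: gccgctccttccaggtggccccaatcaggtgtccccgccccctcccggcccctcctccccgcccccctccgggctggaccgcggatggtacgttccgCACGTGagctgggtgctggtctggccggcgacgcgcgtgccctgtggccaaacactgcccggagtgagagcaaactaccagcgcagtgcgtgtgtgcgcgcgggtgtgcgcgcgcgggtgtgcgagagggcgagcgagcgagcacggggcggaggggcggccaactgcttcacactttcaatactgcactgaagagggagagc
Usp2: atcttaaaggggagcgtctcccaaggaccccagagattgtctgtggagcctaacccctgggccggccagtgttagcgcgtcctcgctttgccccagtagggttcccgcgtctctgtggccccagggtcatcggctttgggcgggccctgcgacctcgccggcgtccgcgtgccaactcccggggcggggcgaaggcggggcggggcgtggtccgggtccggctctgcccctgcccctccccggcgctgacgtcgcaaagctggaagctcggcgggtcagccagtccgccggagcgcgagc
Nr1d1: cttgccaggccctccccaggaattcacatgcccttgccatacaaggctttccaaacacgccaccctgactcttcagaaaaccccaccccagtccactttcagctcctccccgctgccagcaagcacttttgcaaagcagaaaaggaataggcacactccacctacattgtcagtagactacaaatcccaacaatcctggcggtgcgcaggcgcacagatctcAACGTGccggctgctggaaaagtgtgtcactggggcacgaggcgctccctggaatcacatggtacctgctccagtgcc

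Ciart held 3 E-boxes, which began 116, 58 and 44 bases before the start. Of 8566 windows of tested genes 16 (0.187%) held 3 or more, and 10.5% held at least 1. Over all 32851 windows the share with at least 1 was 7.15%. Bhlhe41 held 1 E-box, 153 bases before the start. Neither motif was in the Usp2 window, which covers 1 start inside the gene and not its upstream start. Nr1d1 held 1 E′-box, 28 bases before the start, a motif found in 5.38% of windows of tested genes and 4.68% of all windows. Of the 12 tested E-box clock genes 11 had a window, and the E-box was in those of Per1, Cry1, Tef, Bhlhe41 and Ciart. Of these 5 genes Cry1 alone passed, upward, and the 3 genes that fell, Nr1d1, Nr1d2 and Per3, had no E-box within their windows. A match describes the letters of the window and not a bound site. Sequence outside the windows was not searched, so a window without an E-box does not show that the gene lacks one. Of the other modifiers, Rora and Csnk1e had neither motif in their windows, and Rorb had an E′-box at 1 of its starts, 234 bases before it.

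**Figure D4:**
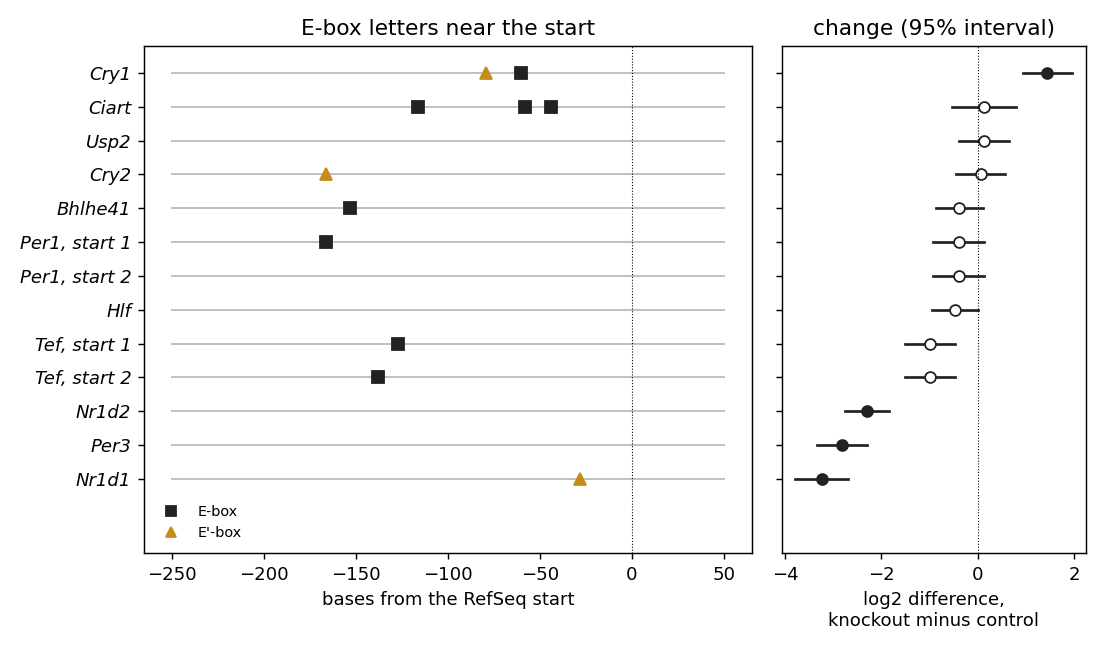
Left, E-box and E′-box positions in bases from the RefSeq start for tested E-box clock genes with a window; right, the log2 difference, knockout minus control, with its 95% interval from limma (filled, adjusted p under 0.05). Ciart carries 3 E-boxes with an interval that holds 0, while Nr1d1, Per3 and Nr1d2 at the bottom carry no E-box in the window.

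Bhlhe41 encodes the repressor DEC2 and occupies 145858243 to 145865558 of chromosome 6, minus strand. It measured 5.16, 4.30 and 4.72 FPKM in knockout libraries, against 5.81, 5.53 and 8.24 FPKM in control libraries. Every knockout library lay below every control library, by 0.368 FPKM at the closest pair, and control 3 was the highest. The means were 4.73 ± 0.43 FPKM in knockout cones and 6.53 ± 1.49 FPKM in control cones (SD, n = 3 each), a ratio of 0.724. The log2 difference was -0.38 ± 0.22 (SE), the 95% interval ran from -0.86 to 0.10, and the adjusted p in limma was 0.92. Without control 3 the log2 difference was -0.22. Its exons overlap on the opposite strand with the gene model Gm43909 over 1280 bp, 19.0% of its exonic length, and the sources do not state whether counting used strand. Bhlhe40, its paralog, was not among the genes of the table.

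Ciart encodes CHRONO and occupies 95878503 to 95882251 of chromosome 3, minus strand. It measured 1.72, 1.40 and 1.72 FPKM in knockout libraries, against 0.366, 2.00 and 2.25 FPKM in control libraries. Control 1 was 5.46-fold below control 2, whereas controls 2 and 3 both lay above every knockout library. The means were 1.62 ± 0.18 FPKM in knockout cones and 1.54 ± 1.02 FPKM in control cones (log2 difference 0.14, 95% interval from -0.52 to 0.80, adjusted p = 0.9997 in limma). The direction turned in 3 of 16 alternatives. Without control 1 the log2 difference was -0.26 (adjusted p = 0.75 in limma). With all libraries kept it was -0.13 with array weights and -0.13 with the rod marker covariate. Control 1 held the highest Stmn2, Pax6 and Rbpms values, but the lowest Slc6a9, Nefl and Nefh values of the control libraries. The 4 of 10 ganglion cell markers in the table summed to 2.66 to 3.30 FPKM in knockout libraries and 3.59 to 24.8 FPKM in control libraries, of which Stmn2 made up 21.1 FPKM in control 1, with Pou4f1, Pou4f2, Slc17a6, Nefm, Thy1 and Sncg not listed. The 2 of 9 amacrine markers in the table summed to 5.005 to 8.15 FPKM in knockout libraries and 8.97 to 11.2 FPKM in control libraries. Their part in the Ciart value was not tested. The level is uncertain in a second way, since 11.9% of the 50-base stretches of Ciart transcripts also occur in the processed pseudogene Gm9176.

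Usp2 occupies 44067021 to 44095627 of chromosome 9, plus strand. It measured 18.3, 11.3 and 18.1 FPKM in knockout libraries, against 14.3, 13.0 and 15.3 FPKM in control libraries. Knockout 2 was the lowest of all 6 libraries and the other knockout libraries the highest. The means were 15.9 ± 4.001 FPKM in knockout cones and 14.2 ± 1.17 FPKM in control cones (log2 difference 0.13, 95% interval from -0.40 to 0.65, adjusted p = 0.9997 in limma). The log2 difference of Usp2 was 0.016 without knockout 1, 0.024 without knockout 3, 0.070 without control 2 and 0.34 without knockout 2. Its exons overlap on the opposite strand with the gene models Gm49380 and Gm39325, over 200 bp each. Exons of Csnk1e, Rora and Csnk1d also overlap opposite-strand gene models, over 267, 82 and 63 bp. Among 38 genes of the ubiquitin-specific proteases in the table Usp2 ranked 4 by mean level. None of the 37 tested passed, and 23 had a positive log2 difference. Usp48 and Usp33 led the family, at 39.2 ± 10.6 and 29.3 ± 2.83 FPKM in knockout cones, against 33.6 ± 6.51 and 32.2 ± 4.82 FPKM in control cones. Usp20 had the smallest p, at 1.93 ± 0.90 FPKM in knockout cones and 4.25 ± 2.21 FPKM in control cones (adjusted p = 0.84 in limma). Usp5 was next, at 1.90 ± 0.43 FPKM in knockout cones and 4.02 ± 2.57 FPKM in control cones. For both genes control 1 was the highest library, at 6.80 and 6.97 FPKM.

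**Figure D5:**
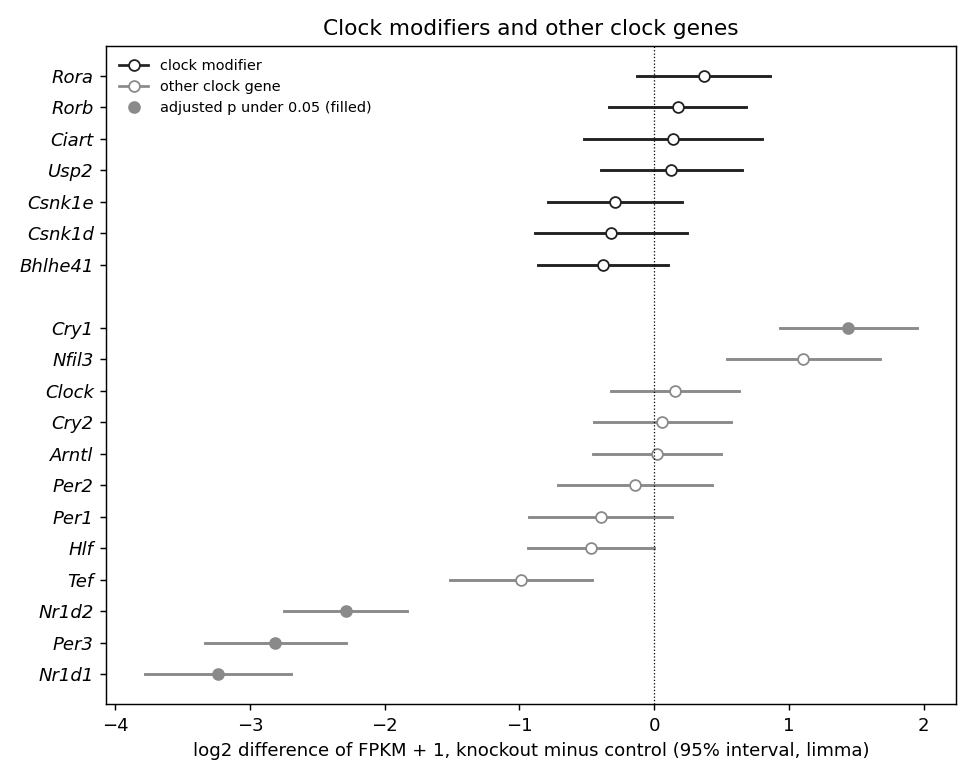
Log2 difference of FPKM + 1, knockout minus control, with its 95% interval from limma, for the 7 clock modifiers (dark) and 12 other tested clock genes (grey). The intervals of the modifiers lie between -0.89 and 0.86, whereas those of Nr1d2, Per3 and Nr1d1 lie below -1.83.

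Of 14 clock genes listed for E-boxes 12 were tested. Of these 3 fell and 1 rose, against 0.058% and 0.0464% of all tested genes, and 8 did not pass. The groups were apart for 6 genes downward and 1 upward, against 5.87% and 3.52% of all tested genes. Of the genes that did not pass, Tef, a PAR bZIP factor, averaged 19.9 ± 3.06 FPKM in knockout cones and 40.8 ± 8.78 FPKM in control cones (adjusted p = 0.31 in limma). Hlf, of the same family, averaged 2.66 ± 0.38 FPKM in knockout cones and 4.09 ± 0.75 FPKM in control cones. Cry2 averaged 9.28 ± 1.19 FPKM in knockout cones and 8.97 ± 2.08 FPKM in control cones. Of the 14 listed genes, Dbp had a mean over 6 libraries under 1 FPKM and was not tested, and Bhlhe40 was not in the table. Arntl2, a clock gene outside that list, also had a mean over 6 libraries under 1 FPKM and was not tested. Dbp measured 0.10, 0.10 and 0.397 FPKM in knockout libraries, against 0.103, 1.12 and 0.947 FPKM in control libraries. Arntl2 measured 0.551, 0.498 and 0.954 FPKM in knockout libraries, against 0.861, 0.996 and 1.94 FPKM in control libraries. The table has a floor of 0.1 FPKM, so the Dbp values of knockouts 1 and 2 are upper bounds.

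None of 23 tested kinase, phosphatase, ubiquitin ligase and deubiquitinase genes that act on clock proteins passed, with a median log2 difference of -0.004. Ppp1cc, a catalytic subunit of protein phosphatase 1, was the most abundant at 54.7 ± 7.89 FPKM in knockout cones and 57.7 ± 5.25 FPKM in control cones. The ubiquitin ligase gene Stub1 averaged 5.09 ± 1.30 FPKM in knockout cones and 7.11 ± 1.37 FPKM in control cones. The deubiquitinase gene Usp9x averaged 18.0 ± 1.37 FPKM in knockout cones and 13.7 ± 2.27 FPKM in control cones, with groups that were apart. The kinase gene Mapk8 averaged 8.87 ± 1.67 FPKM in knockout cones and 6.67 ± 1.57 FPKM in control cones. These 3 had the smallest p of the list, with an adjusted p from 0.91 to 0.93 in limma.

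The genes whose profiles over the 6 libraries lay closest to each modifier were found by the largest gap between profiles of log2(FPKM + 1), each centred on its own mean. For Rora they were the synaptotagmin gene Syt1 and Wdr76, with largest gaps of 0.06 each on the log2 scale. Syt1 measured 69.1, 66.2 and 66.8 FPKM in knockout libraries, against 43.3, 50.3 and 65.8 FPKM in control libraries. For Rorb they were Rce1 and Kxd1 (0.06 and 0.12), for Csnk1d Ndufb3 and Atp5j2 (0.11 and 0.12), and for Csnk1e Tldc1 and Plekhm1 (0.05 and 0.09). Ndufb3 and Atp5j2 encode subunits of respiratory chain complex I and ATP synthase. For Bhlhe41 they were Tmem218 and Lrrc4 (0.09 and 0.10), and for Usp2 Crem and Inpp5f (0.09 and 0.11). For Ciart they were Cct2 and Gars (0.09 and 0.10), which encode a chaperonin subunit and a glycyl-tRNA synthetase, and both were lowest in control 1 as well. Between 82 genes, for Csnk1d, and 543 genes, for Rora, came within 0.25 of a modifier, so such likeness was common among these 6 libraries. The profiles were not scaled to library sums, and the part of those sums in the likeness was not tested. No modifier was among the closest genes of another.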

How the data were processed

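Sorted cones gave 6 libraries, each from 100 ng of RNA and made with a directional poly(A) kit, per the labels' protocols. FPKM were the only values the authors deposited, in 1 table with 6 library columns. TopHat2 2.1.0, Cufflinks 2.2.1, HTSeq, DESeq2 and mm10 are named, without roles, per the submitters' processing notes. The fragments counted, the annotation and any use of strand are not stated there. The table lists 9720 protein-coding genes with a floor of 0.1 FPKM, and low values showed no whole-read steps, so depth is unknown and no counting interval is given.

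Groups follow the genotype labels. The 8627 genes whose mean over 6 libraries reached 1 FPKM were tested (1093 lay below) on log2(FPKM + 1), which understates changes of low genes, with limma 3.58.1 in R 4.3.3 (variance trend, two-sided, Benjamini-Hochberg over all tested genes, threshold 0.05). The fit was tested on simulated data. Exact permutation tests (scipy 1.17.1) were run on 7 ratios within a library. They are reported for Rora to Rorb and Csnk1d to Csnk1e, because the other denominators hold genes that fell. With 3 libraries per group their smallest possible p is 0.10, so no ratio could pass 0.05. Positions, exon overlaps and shared 50-base stretches come from GENCODE vM21 (GRCm38, the assembly of mm10), and promoter sequences from RefSeq on GRCm38.p6, which matched 6 of 7 genes, Csnk1d excepted. Figures were drawn with matplotlib 3.10.9.

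The 7 genes and all lists were chosen with earlier results of these data known. Named genes are the 7, the other clock and casein kinase genes listed, the 3 of smallest p and the most abundant of each further list, the 2 most abundant markers of other cells, and the 2 closest profiles per modifier. Values of some marker genes are not reported here. Alternatives covered the pseudocount, filter, scaling, variance model, a rod marker covariate, array weights, a replicate block, and leaving out each library.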

Additional observations from a re-analysis of the deposited data

How the results depend on the processing

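No clock modifier passed under any of 17 alternatives, and 6 of the 7 kept their direction in each. Ciart was not tested under the filter of 5 FPKM. Its direction turned, with a log2 difference of -0.13 with array weights, -0.13 with the rod marker covariate, and -0.26 to 0.37 with a library left out. Over all tested genes 9 were called, 6 to 13 with a library left out and 23 with array weights. With the replicate number as a block 6 genes were called, and Cry1 no longer passed. The labels give the numbers no shared source, and deviations of same-numbered libraries correlated at -0.12, -0.09 and -0.03, so they were not taken as pairs. The log2 difference of the Csnk1d to Csnk1e ratio ran from -0.44 to 0.37 with a library left out. Genes that did not pass also turned. With the rod marker covariate the log2 differences were -0.038 for Arntl, -0.019 for Csnk1g1, -0.13 for Csnk1g2, -0.18 for Csnk2a2, -0.088 for Cry2 and -0.098 for the rod marker Sag. With array weights they were -0.10 for Csnk2a2, 0.12 for Per2, -0.052 for Cry2 and -0.0021 for Sag. With a library left out they ran from -0.059 to 0.17 for Arntl, -0.068 to 0.088 for Csnk1a1, -0.022 to 0.096 for Csnk1g1, -0.13 to 0.33 for Csnk1g2, -0.087 to 0.27 for Csnk2a1, -0.23 to 0.26 for Csnk2a2, -0.34 to 0.093 for Csnk2b, -0.40 to 0.098 for Per2, -0.12 to 0.18 for Cry2, -0.19 to 0.0026 for Ppp1cc, -0.098 to 0.26 for Sag and -0.31 to 0.071 for the ganglion cell marker Nefl. The cause was not tested. With 3 libraries per group the 95% intervals of the modifiers allow ratios from 0.541 to 1.82 on the scale of FPKM + 1.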
